A study of Mus musculus with 30 samples.

Results

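Expression of 10 immediate early genes was followed across 30 bulk RNA-seq libraries of mouse pancreatic islet cells sorted by fluorescence. The genes were taken by name from the 17775 genes of the table: the AP-1 subunits Fos, Fosb, Jun, Junb and Jund, the related factor Atf3, the zinc-finger factor Egr1, and Ier2, Ier5 and Btg2. The genes were chosen as a named family, with earlier results of these data known; all 10 were found, and all 10 passed the filter on low values (5 or more in 4 libraries or more, which 16633 genes passed). The study compared mature alpha-cells and beta-cells with alpha-cells after beta-cell loss, with forced Pdx1, or with both. Mature alpha-cells came from Glucagon-Venus mice aged 3 months (alpha, n = 8). Glucagon-Venus mice that also carried RIP-DTR, a diphtheria toxin receptor driven by the rat insulin promoter and so directed at beta-cells, were injected with the toxin (DT) at 2 months and their alpha-cells taken 30 days later (alpha DT, n = 4). Alpha-cells with Glucagon-rtTA, TetO-Cre, R26YFP and CAG-Pdx1, in which a glucagon-driven, doxycycline-controlled Cre switches on the Pdx1 transgene, were taken at 3 months (alpha Pdx1, n = 5). The same alleles with RIP-DTR, injected at 2 months and taken 30 days later, formed the group alpha Pdx1 DT (n = 6), and Insulin-mCherry mice aged 3 months gave mature beta-cells (beta, n = 7). The toxin was given only with RIP-DTR, and only the YFP strain carried the Pdx1 transgene. In each case the agent and the strain therefore cannot be told apart. Beta-cells came only from Insulin-mCherry mice and unmodified alpha-cells only from Glucagon-Venus mice. Cell type and reporter strain therefore cannot be told apart either. Libraries are numbered within a group in accession order; the group is the label's, and the number is only a name. Nothing in the labels ties each library to an animal of its own, and p-values therefore measure only the spread between these samples. In sorted bulk samples, fewer responding cells and less RNA per cell cannot be told apart.

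Immediate early genes are transcribed within minutes of a stimulus without new protein synthesis, chiefly through kinase cascades that act on factors already bound at their promoters, such as CREB, SRF and the ETS factors. Fos and Fosb proteins pair with Jun, Junb or Jund to form AP-1, a dimer that binds DNA and switches on a second wave of genes, and Jund is the subunit most cells express without a stimulus. In islet cells, membrane depolarisation, calcium and cyclic AMP are the classical inducers. Dissociation of tissue to single cells is also known to induce these genes together with heat shock genes, and its part in the results was not tested; values of heat shock genes are given further on.

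The deposited values were read as quantile-normalised log2 values from their range and from quartiles nearly the same in each library, with a median of 8.54 or 8.55 and a top value of 22.56. Levels are therefore compared between libraries for 1 gene, and not between genes. The table held no read numbers. Of 8 alpha markers, 8 had a group mean above the median gene in each of the 4 groups of alpha-cells, and 8 of 9 beta markers did in beta. So did 5 of 8 alpha markers in beta, and 4 or 5 of 9 beta markers in the groups of alpha-cells. Of 10 acinar markers, 1 did in alpha Pdx1 and 9 or 10 in each other group. The measure therefore does not show that the sorted cells were pure. Pdx1, the targeted factor, lay between 10.78 and 11.83 in 4 of 5 alpha Pdx1 libraries, at 8.61 in the library labelled alpha Pdx1 5, between 11.53 and 12.59 in 5 of 6 alpha Pdx1 DT libraries and at 5.51 in the library labelled alpha Pdx1 DT 5. It lay between 3.66 and 5.61 in 7 alpha libraries and at 11.23 in the library labelled alpha 8. The libraries labelled beta 1 and beta 5 had Gcg, which encodes glucagon, at 22.56, the top value of a library, against 15.16 to 17.92 in the other 5 beta libraries. These 5 libraries stood apart from their groups, and results are given with and without them. The library labelled alpha Pdx1 DT 5 was also nearly the same as the library labelled alpha 4 (Pearson's r over genes 0.993, the highest of 435 pairs, with a median difference of 0.04 over the 10 members).

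In the annotation of build GRCm38 (GENCODE M21), Fos lay at chr12:85473890-85477273, Fosb at chr7:19302696-19310051, Jun at chr4:95049034-95052222, Junb at chr8:84974484-84978718 and Jund at chr8:70698949-70700616. Atf3 lay at chr1:191170296-191218039, Ier2 at chr8:84661331-84662852, Ier5 at chr1:155096361-155099636 and Btg2 at chr1:134075170-134079120. Jun, Jund, Ier2 and Ier5 were annotated with a single exon, as intronless genes. RefSeq (GRCm38.p6) gave promoter windows for 8 members, running from 250 bases before to 50 after the annotated start; Ier2 and Egr1 had no entry.

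Both strands were searched for the letters TGACG, the core of the cyclic AMP response element (CRE) that CREB and ATF proteins bind, whose full form is TGACGTCA. The core was found in 5 of 8 windows, those of Fos, Fosb, Junb, Atf3 and Btg2, and in 20.8% of 32851 windows of all genes. The full element was found in Btg2 alone among the 8 and in 1.79% of all windows. The sequences are shown because these members differed together between beta and alpha, with capitals marking TGACG on either strand or the full element. Ier5 is set last as the member that went the other way, and its window held none. The window of Jun, which was lower in beta, held none either, and Ier2 and Egr1, also lower, had no window. Whether these letters bear on the differences was not tested.
Fos: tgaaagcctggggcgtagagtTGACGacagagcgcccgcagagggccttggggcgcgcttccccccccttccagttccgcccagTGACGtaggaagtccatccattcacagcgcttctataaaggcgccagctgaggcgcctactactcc
Btg2: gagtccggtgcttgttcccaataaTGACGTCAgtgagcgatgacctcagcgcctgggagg
Fosb: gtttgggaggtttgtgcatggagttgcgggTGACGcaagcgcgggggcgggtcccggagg
Junb: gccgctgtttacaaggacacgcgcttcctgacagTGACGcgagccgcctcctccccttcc
Atf3: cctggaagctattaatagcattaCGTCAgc
Ier5: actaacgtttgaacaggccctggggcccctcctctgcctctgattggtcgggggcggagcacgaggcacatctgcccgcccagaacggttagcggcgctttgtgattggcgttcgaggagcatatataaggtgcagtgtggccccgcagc
The stretches lie at chr12:85473740-85473889 on the plus strand for Fos and, on the minus strand, at chr1:134079286-134079345 for Btg2, chr7:19310076-19310135 for Fosb, chr8:84978829-84978888 for Junb, chr1:191183334-191183363 for Atf3 and chr1:155099637-155099786 for Ier5. All lie outside the annotated gene except that of Atf3, whose RefSeq start is internal to the gene, 34706 bases from the outermost GENCODE start, and whose stretch overlaps an exon. In Fos the cores began at positions -129 and -66 from the start, and the nearer one was followed by the ETS letters GGAAGT (23.8% of all windows) and by TATAAA (13.6%), which began at -33. GGAAGT and TATAAA also occurred in the Junb window. The windows of Jun, Jund and Ier5 held no TGACG. That of Jund was placed 1210 bases from the GENCODE start. None of the 8 windows held the AP-1 site TGACTCA (5.2%), a CArG box, the SRF site (1.63%), or the EGR site GCGTGGGCG (0.612%). A match is a string of letters and not a measured binding site. The search covered only 250 bases before the start to 50 after, and not Ier2 or Egr1. It therefore does not show that a gene lacks a site.

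Beta libraries were compared with alpha libraries to ask how far the 2 mature cell types, each from its own reporter strain, differ in these genes. Of the 10 members, 8 were lower in beta and 1, Ier5, was higher, at an adjusted p of at most 0.05 (limma, Benjamini-Hochberg over all genes); over all genes 17.6% were lower and 16.9% higher. The median log2 difference of the members was -3.13 and that of all genes 0. Between beta and alpha, 8 members had groups that did not overlap, as did 14.5% of all genes.

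Among the AP-1 subunits, Fos lay at 14.40, 15.01 and 15.86 (lowest, median and highest) in alpha and at 10, 11.11 and 12.73 in beta. Every beta library was below every alpha library. The log2 difference was -3.64 ± 0.27 (SE; limma adjusted p = 8.13e-12), a level 0.0804 times that of alpha. Fosb, the other Fos protein gene here, lay at 11.99, 13.32 and 14.73 in alpha and 8.41, 9.52 and 11.85 in beta, again without overlap, and its difference was -3.29 ± 0.40 (limma adjusted p = 1.50e-07). Jun, the main partner of Fos, lay at 13.47, 14.20 and 14.77 in alpha and 9.91, 10.87 and 12.59 in beta, a difference of -3.08 ± 0.29 (limma adjusted p = 1.07e-09). Junb, a weaker activator that can restrain Jun, lay at 9.48, 11.35 and 11.96 in alpha and 7.35, 8.32 and 9.34 in beta, a difference of -2.47 ± 0.33 (limma adjusted p = 5.60e-07). Jund stood apart from these 4 subunits. It lay at 8.23, 10.28 and 10.86 in alpha and 9.38, 9.44 and 9.79 in beta, so that all 7 beta libraries fell within the alpha range, and its difference of -0.45 ± 0.25 did not pass the test (limma adjusted p = 0.177; 95% interval -0.97 to 0.07). The low end of its alpha range was the library labelled alpha 7, at 8.23. The next lowest was the library labelled alpha 2, at 9.38, level with the lowest beta value. Without alpha 7 the difference was -0.70 (limma adjusted p = 0.00663). Jund was also called lower in beta when library weights were used (limma adjusted p = 0.000626).

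The remaining members followed Fos, except Ier5. Atf3, a CREB-family factor induced by stress that pairs with Jun, had the most negative estimate of the 10, from low values. It lay at 8.21, 9.62 and 10.26 in alpha and 3.59, 4.12 and 7.2 in beta, with 5 of 7 beta libraries under the filter's minimum of 5, and its difference was -4.50 ± 0.54 (limma adjusted p = 7.24e-08). With an offset of 64 added on the linear scale, which damps low values, it was -2.79 (2.50e-07) and that of Fos, at -3.60, was the most negative. Egr1 (chr18:34859823-34864984), which binds GC-rich promoter sites after growth factor or depolarising stimuli, lay at 15.43, 16.03 and 17.31 in alpha and 12.00, 12.91 and 13.88 in beta, a difference of -3.18 ± 0.28 (limma adjusted p = 2.15e-10). Ier2, a small nuclear immediate early protein, differed by -3.47 ± 0.29 (limma adjusted p = 5.80e-11), with 10.92 to 12.36 in alpha and 7.27 to 9.73 in beta. Btg2, an antiproliferative cofactor that promotes mRNA deadenylation, differed least among the 8 lower members, by -1.86 ± 0.16 (limma adjusted p = 7.36e-11), with 13.31 to 14.03 in alpha and 11.28 to 12.52 in beta. Ier5, an immediate early protein known to act on heat shock factor, went the other way. It lay at 8.20, 9 and 10.96 in alpha and 9.80, 10.29 and 11.28 in beta, a difference of +1.20 ± 0.31 (limma adjusted p = 0.00307). The groups overlapped through the library labelled alpha 8, at 10.96; the other 7 alpha libraries, at 9.39 or less, were all below the lowest beta library.

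**Figure D1:**
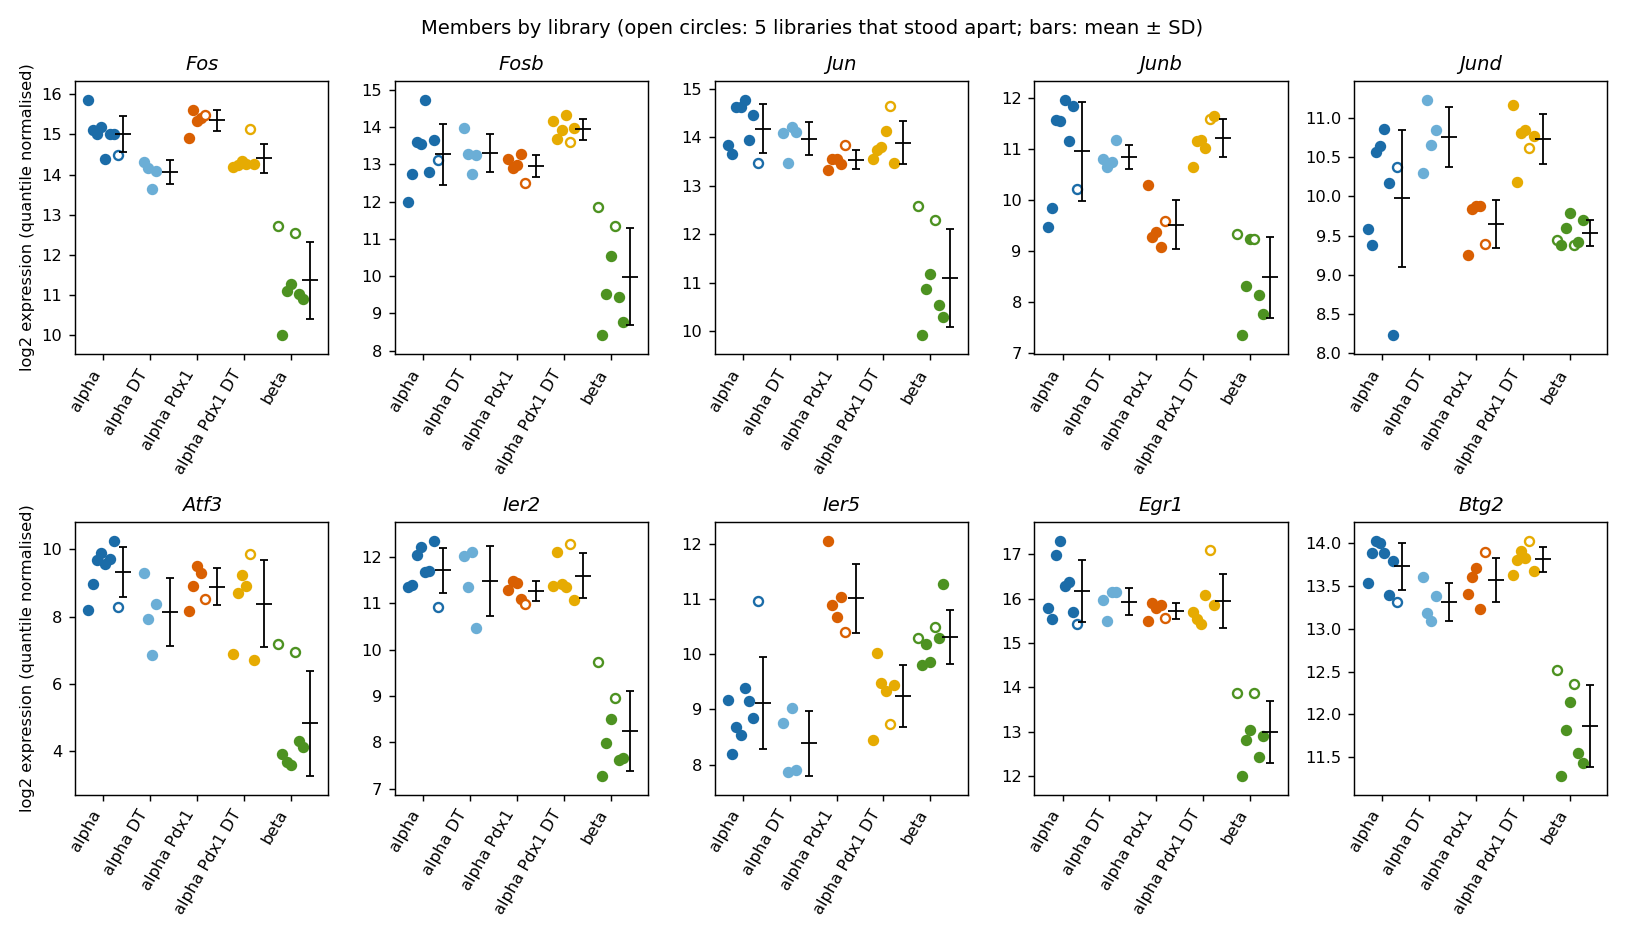
Expression of the 10 members in each of the 30 libraries, with log2 expression (quantile normalised) on the y axis of each panel and the 5 groups on the x axis; each circle is a library, open circles are the 5 libraries that stood apart, and bars are mean ± SD. The beta libraries sit below the other 4 groups in Fos, Fosb, Jun, Ier2, Egr1 and Btg2, but not in Jund or Ier5, and the open beta circles are nearer to alpha.

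The beta group was split within itself. In the libraries labelled beta 1 and beta 5, 8 members were higher than in each of the other 5 beta libraries, yet below every alpha library. Fos was at 12.73 and 12.54 against 10 to 11.28 in the other 5, and Atf3 at 7.2 and 6.96 against 3.59 to 4.30. Jund, at 9.44 and 9.38, and Ier5, at 10.29 and 10.50, were within the range of the other 5. The same libraries had Gcg at its top value and the highest mean level of the 10 acinar markers measured among the beta libraries (14.69 and 14.58, against 6.73 to 12.07). Their alpha marker means were 13.10 and 13.33, against 9.61 to 10.51 in the other 5. Their beta marker means were 14.40 and 14.49, against 15.46 to 15.69. Means of delta and PP, leukocyte, ductal and mesenchymal markers were also highest in these libraries, while endothelial and erythroid means did not set both apart. The part of admixed cells was not tested. Without the 5 libraries that stood apart, the count in beta against alpha remained 9 of 10 and the differences were larger, with Fos at -4.22 (limma adjusted p = 1.01e-16), Atf3 at -5.55 (8.92e-12) and Ier5 at +1.43 (0.000351). For the whole groups, acinar markers spanned a mean of 6.66 to 12.93 in alpha and 6.73 to 14.69 in beta, with 0 of 10 past the test, and leukocyte markers spanned 4.26 to 6.84 and 5.95 to 10.28, with 2 of 10 higher in beta (limma). Of 5 ductal markers 1 was higher and 1 lower in beta (median 0.64), and of 2 endothelial markers 0 passed (median 0.48). Over all genes 17.6% were lower and 16.9% higher. Some mesenchymal, delta-cell and PP-cell markers were lower in beta along with the members. Of 5 mesenchymal markers 3 were lower (median -2.02, with library means of 5.29 to 8.54 in alpha and 3.83 to 5.93 in beta), and of 5 delta-cell and PP-cell markers 2 were lower (median -1.13, with 10.23 to 12.32 and 8.16 to 13.48); their part in the result was not tested.

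The same 8 members were also lower in beta than in each of the other 3 groups of alpha-cells, which share the beta libraries. Against alpha DT, 9 members were lower and 1 higher (13.6% and 16.6% of all genes), Jund among them at -1.23 ± 0.31 (limma adjusted p = 0.00257). Against alpha Pdx1, 8 were lower (16.7%), while Jund at -0.12 ± 0.29 and Ier5 at -0.70 ± 0.35 did not pass (limma adjusted p = 0.788 and 0.130). Against alpha Pdx1 DT, 9 were lower and 1 higher (12.9% and 13.4%), with Jund at -1.20 ± 0.27 (limma adjusted p = 0.00109). The smallest of the Junb differences was that from alpha Pdx1, -1.03 ± 0.38 (limma adjusted p = 0.0343), and it ended as a call without any 1 of the libraries labelled alpha Pdx1 1 or 5 or beta 2, 3, 6 or 7 (adjusted p from 0.0548 to 0.103). Ier5 in beta against alpha Pdx1 DT, +1.08 ± 0.34 (limma adjusted p = 0.0164), had an adjusted p of 0.0535 without the library labelled alpha Pdx1 DT 1.

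In order of level, beta was lowest of the 5 groups for 9 members, Ier5 being the exception. For 7 of them (Fos, Fosb, Jun, Atf3, Ier2, Egr1 and Btg2) the step from beta to the next group passed the test. For these 7, none of the steps between neighbours among the 4 alpha-cell groups did. Fos still differed between alpha Pdx1 and alpha DT, which are not neighbours in its order (+1.3 ± 0.35, limma adjusted p = 0.0123). Junb had an intermediate step. Its mean was 11.21 in alpha Pdx1 DT, 10.95 in alpha, 10.85 in alpha DT, 9.52 in alpha Pdx1 and 8.48 in beta, and the last 2 steps passed the test. Jund ran from 10.76 in alpha DT to 10.73 in alpha Pdx1 DT, 9.98 in alpha, 9.65 in alpha Pdx1 and 9.53 in beta, and no neighbours in this order differed past the test. Ier5 had the order alpha Pdx1 (11.01), beta (10.32), alpha Pdx1 DT (9.24), alpha (9.12) and alpha DT (8.38), with the step between beta and alpha Pdx1 DT as the one that passed.

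Forced Pdx1, a homeodomain factor that directs beta-cell identity, was compared with unmodified alpha-cells to ask whether these genes move toward the beta level with it. Most did not pass the test. Ier5 was higher in alpha Pdx1 (1 of 10 members, against 2.36% of all genes) and Junb lower (1 of 10, against 1.98%), with a median over the members of -0.38 and over all genes of 0.03. The 5 alpha Pdx1 libraries had Ier5 at 12.06, 10.89, 10.68, 11.03 and 10.40, and 7 of the 8 alpha libraries were at 9.39 or less. The exception was again the library labelled alpha 8, which had Pdx1 at 11.23 and Ier5 at 10.96. The difference was +1.89 ± 0.35 (limma adjusted p = 0.00239), a level 3.72 times that of alpha, and it was +2.31 without the 5 libraries that stood apart (7.25e-06). Junb was at 10.30, 9.27, 9.37, 9.08 and 9.58 in alpha Pdx1, the groups overlapped through the alpha libraries at 9.48, 9.85 and 10.22, and the difference was -1.44 ± 0.37 (limma adjusted p = 0.0196). That call was lost without the library labelled alpha Pdx1 2, 3 or 4 (adjusted p = 0.0637, 0.0530 and 0.0803). Jun, at -0.63 ± 0.32 (limma adjusted p = 0.311), passed without the 5 libraries that stood apart, at -0.81 (0.0206). The other 7 members ran from -0.45 to +0.35, and Fos, at +0.35 ± 0.30 (limma adjusted p = 0.609), had its highest group mean in alpha Pdx1.

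Other measures moved along with this comparison. The ribosomal gene Rn18s-rs5 lay at 16.90 to 18.27 in alpha Pdx1 and 17.68 to 20.54 in alpha. With it as a covariate, the Junb difference was -0.58 (limma adjusted p = 0.557) and that of Ier5 +2.12 (0.0337). The mean of the acinar markers was 4.42 to 11.05 in alpha Pdx1 against 6.66 to 12.93 in alpha, with 0 of 10 past the test and 1 with a group mean below 5 in alpha Pdx1. The leukocyte mean was 3.86 to 5.01 against 4.26 to 6.84, with 0 of 10 past the test and 4 of 10 against 3 of 10 with a group mean below 5. None of the 10 acinar or 10 leukocyte markers was listed at 0 in any library. The lowest value of any library was 0.76, so no gene could be at 0 and this does not show detection. With the acinar or the leukocyte mean as a covariate, Ier5 differed by +1.94 and +1.90 (limma adjusted p = 0.00524 and 0.00229) and Junb by -1.33 and -1.28 (0.0475 and 0.0254).

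**Figure D2:**
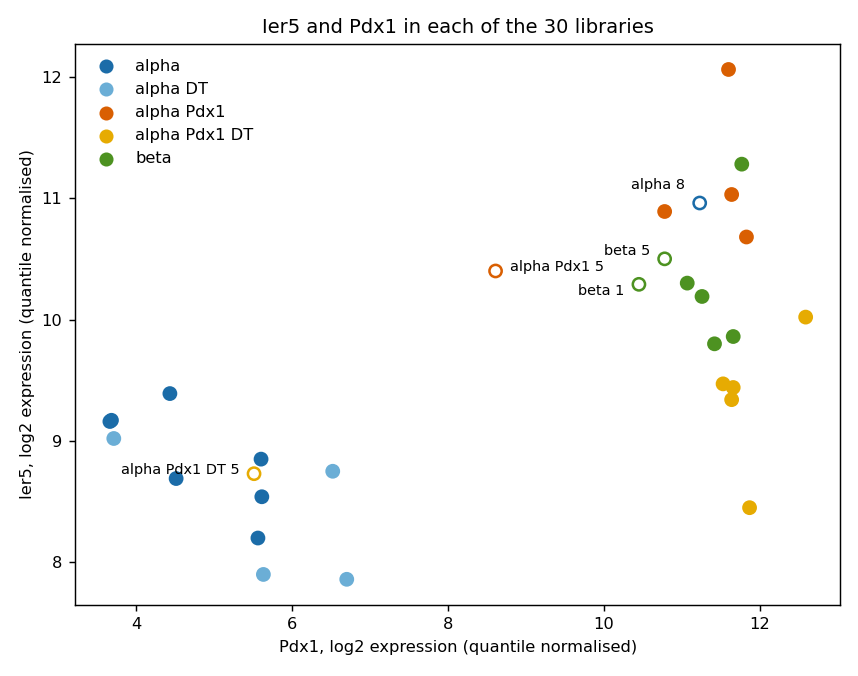
Ier5 against Pdx1, both as log2 expression (quantile normalised), in each of the 30 libraries; each circle is a library, coloured by group, and the 5 libraries that stood apart are open and named. The library labelled alpha 8 lies among alpha Pdx1 and beta, the library labelled alpha Pdx1 DT 5 among alpha, and the other 5 alpha Pdx1 DT libraries combine Pdx1 of 11.53 or more with Ier5 of 8.45 to 10.02.

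Alpha-cells taken after beta-cell loss were compared with unmodified alpha-cells for the effect of toxin and RIP-DTR. None of the members passed in alpha DT against alpha (0 of 10 by limma, against 3.26% of all genes). Of the 16633 genes tested 3335 had an unadjusted p under 0.05, as did 3 of the 10 members. These were Fos at -0.95 ± 0.32, Jund at +0.78 ± 0.30 and Btg2 at -0.42 ± 0.19 (limma adjusted p = 0.0921, 0.135 and 0.214). Fos was at 14.32, 14.17, 13.63 and 14.10 in alpha DT, and each of these was below the lowest alpha library, at 14.40. Fos was the 1 member of 10 whose groups did not overlap here, against 2.07% of all genes. Without the 5 libraries that stood apart its difference was -1.03 (limma adjusted p = 0.00896). The other 7 members ran from -1.20 (Atf3, ± 0.64) to +0.04 (Fosb, ± 0.47), and the interval of Atf3 ran from -2.50 to 0.10. Leukocyte markers moved in the same comparison, with 4 of 10 higher in alpha DT and a mean of 6.79 to 10.99 against 4.26 to 6.84; with that mean as a covariate Fos differed by -1.16 (limma adjusted p = 0.111), and with the acinar mean by -1.12 (0.0337).

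In alpha Pdx1 DT against alpha, 0 of 10 members passed (limma, against 7.81% of all genes). Of the 16633 genes tested 4409 had an unadjusted p under 0.05, as did 2 of the 10 members. These were Jund at +0.75 ± 0.27 (limma adjusted p = 0.0695) and Fos at -0.60 ± 0.29 (0.176). Fos in alpha Pdx1 DT lay at 14.20, 14.27 and 15.14 (lowest, median and highest), whose top value was the library labelled alpha Pdx1 DT 5. Without the 5 libraries that stood apart, 3 members passed: Fos at -0.82 (limma adjusted p = 0.00453), Jund at +0.83 (0.0497) and Atf3 at -1.39 (0.0230). The 7.81% of all genes above belongs to the fit with all 30 libraries, and the share without these 5 is not given here. Jund also passed without the library labelled alpha 5 (+0.88, 0.0283) or alpha Pdx1 DT 5 (+0.78, 0.0479). Ier5, higher in alpha Pdx1, was close to alpha here, at +0.12 ± 0.33 with an interval of -0.54 to 0.79.

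The direct comparison of both treatments with Pdx1 alone gave 3 calls. In alpha Pdx1 DT against alpha Pdx1, Junb and Jund were higher (2 of 10, against 4.83% of all genes) and Ier5 lower (1 of 10, against 4.39%). Junb lay at 10.65, 11.17 and 11.65 (lowest, median and highest) in alpha Pdx1 DT, above all 5 alpha Pdx1 libraries, a difference of +1.69 ± 0.39 (limma adjusted p = 0.00915). Jund lay at 10.18, 10.79 and 11.16, likewise above all 5 alpha Pdx1 libraries (9.26, 9.84, 9.88, 9.88 and 9.39), a difference of +1.08 ± 0.30 (limma adjusted p = 0.0226). Ier5 lay at 8.45, 9.39 and 10.02, below all 5, and its difference was -1.77 ± 0.37 (limma adjusted p = 0.00598), a level 0.293 times that of alpha Pdx1. These groups thus separated in all 3 called members, and also in Fosb, which was at +0.98 ± 0.46 (limma adjusted p = 0.172); 4 of 10 members did not overlap, as against 4.56% of all genes. Fos was just short of the threshold, at -0.95 ± 0.32 (limma adjusted p = 0.0558), and passed without the library labelled alpha Pdx1 DT 5 (-1.09, 0.0231). It also passed without the library labelled alpha 1, alpha Pdx1 1 or beta 1, 2 or 5 (adjusted p from 0.0313 to 0.0454). The Jund call was lost without the library labelled alpha Pdx1 5 (+1.02, adjusted p = 0.0663) or alpha Pdx1 DT 1 (+1.00, 0.0505), and without the 5 libraries that stood apart (+1.04, 0.0595). Junb and Ier5 kept their calls without those 5, at +1.63 (0.0178) and -1.82 (0.00310).

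Here too other measures separated the groups. Rn18s-rs5 lay at 19.87 to 22.56 in alpha Pdx1 DT and 16.90 to 18.27 in alpha Pdx1, with no overlap. With it as a covariate none of the 3 calls held: Junb differed by +0.10, Jund by +1.05 and Ier5 by -2.19 (limma adjusted p = 0.998, 0.995 and 0.995). Because the covariate separates the groups, this fit can hardly tell it from the group, and the lost calls decide nothing. In that fit the Junb estimate was near 0, while those of Jund and Ier5 were about as large as before. Fos, at -0.95 without the covariate, was at -0.13 with it (0.998). Leukocyte markers had a mean of 4.31 to 10.73 against 3.86 to 5.01, with 3 of 10 higher and 0 of 10 against 4 of 10 with a group mean below 5. With that mean as a covariate Junb was at +1.22 (0.146), Jund at +1.10 (0.118) and Ier5 at -1.79 (0.0481). Acinar markers had a mean of 6.26 to 14.23 against 4.42 to 11.05, with 0 of 10 past the test, and with that mean the 3 calls held, at +1.58 (0.0182), +1.34 (0.00680) and -1.82 (0.00732).

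**Figure D3:**
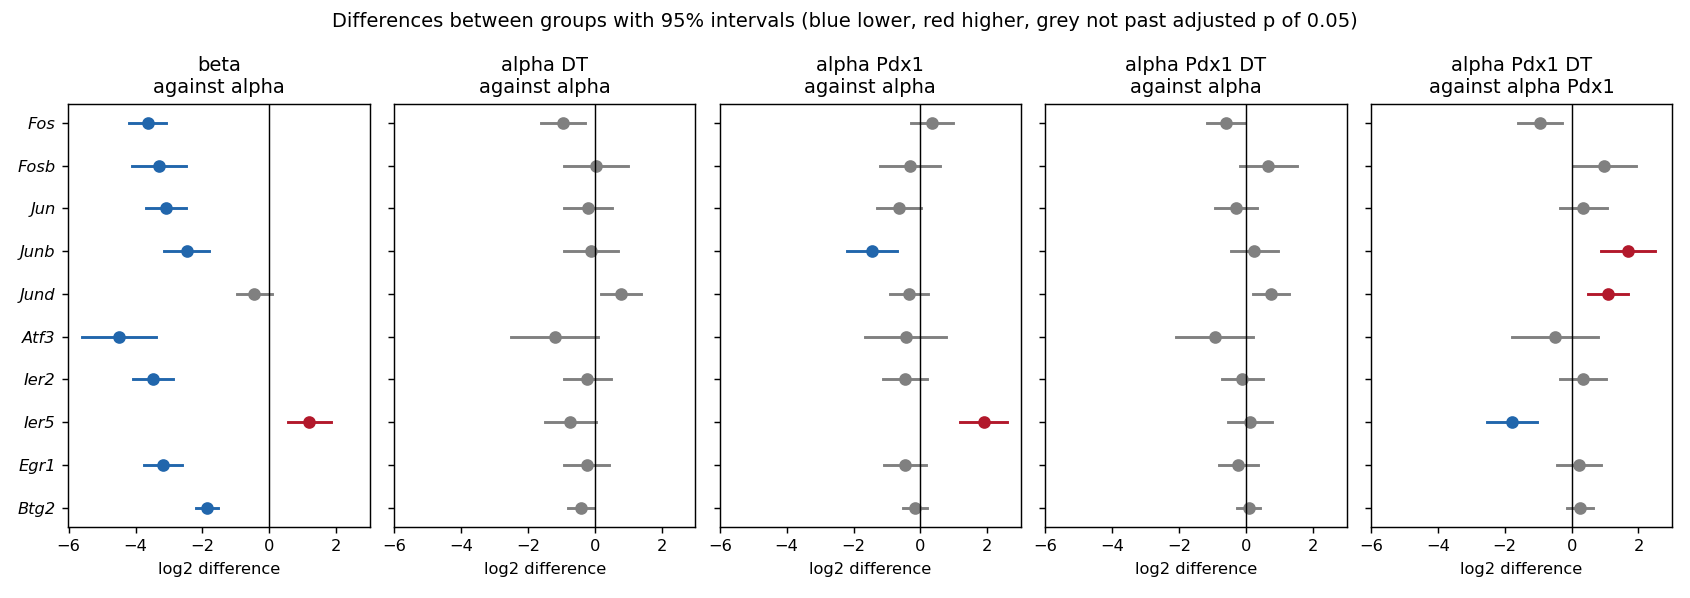
Log2 differences of the 10 members (x axis) in 5 comparisons (panels), 1 member to a row; points are estimates from the linear model, lines their 95% intervals, and colour marks members past an adjusted p of 0.05. The first panel holds 8 lower members and 1 higher, the comparisons of alpha DT and alpha Pdx1 DT with alpha hold none, and Ier5 and Junb stand on opposite sides of 0 in alpha Pdx1 against alpha and in alpha Pdx1 DT against alpha Pdx1.

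Whether the toxin acted differently with Pdx1 than without it was tested as an interaction. None of the members passed (0 of 10 by limma, against 0% of all 16633 genes). An unadjusted p under 0.05 was found for 1527 of all genes tested and for 2 of the 10 members. Junb had the largest value, +1.80 ± 0.55 (limma adjusted p = 0.409), followed in p by Btg2, +0.66 ± 0.27 (0.467), and Ier5 stood at -1.04 ± 0.52 (0.553). In alpha Pdx1 DT against alpha DT, 0 of 10 members passed (limma, against 2.1% of all genes). An unadjusted p under 0.05 was found for 2738 of 16633 genes and for 2 of the 10 members. The 2 members were Btg2 at +0.50 ± 0.20 and Ier5 at +0.86 ± 0.39 (limma adjusted p = 0.191 and 0.259). In alpha Pdx1 against alpha DT, Ier5 and Fos were higher (2 of 10, against 9.82% of all genes) and Junb and Jund lower (2 of 10, against 7.19%). Ier5 differed by +2.63 ± 0.41 (limma adjusted p = 0.000118), with alpha DT at 8.75, 7.86, 9.02 and 7.90, and Fos by +1.3 ± 0.35 (0.0123). Jund differed by -1.11 ± 0.33 (0.0198), with an adjusted p of 0.0723 without the library labelled alpha DT 2 and 0.0517 without the 5 that stood apart. Junb differed by -1.33 ± 0.43 (0.0326), a call lost without any 1 of the 4 alpha DT libraries or of the libraries labelled alpha Pdx1 2 to 5 (adjusted p from 0.0503 to 0.0774). Acinar markers (2 of 10) and leukocyte markers (4 of 10) were also lower in alpha Pdx1 than in alpha DT. Rn18s-rs5 separated these groups too, at 16.9 to 18.27 in alpha Pdx1 and 19.27 to 20.54 in alpha DT, and can hardly be told from the group. With Rn18s-rs5 as a covariate, Ier5 kept its call (+2.95, 0.00866). Jund kept its size without the call (-1.09, adjusted p = 0.200), and Fos (+0.70, 0.465) and Junb (-0.14, 0.917) were smaller.

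Jund served as a reference inside each library, since a shift common to all genes of a library cancels in the difference of a member from it. In these quantile-normalised values such shifts were small, with library medians of -0.083 to 0.073 over the genes of higher level. The 9 other members were compared with Jund in the 4 comparisons with alpha, 36 tests in all. In beta against alpha all 9 differences passed, 8 lower and Ier5 higher. All of them subtract the same Jund values, with the low one of the library labelled alpha 7 (8.23), and are not separate results. The share of all genes that would pass against Jund was not computed. The number of calls also varied when 1 library was left out, as given in the last section. Fos minus Jund was 5.03 ± 1.12 (SD, n = 8) in alpha and 1.84 ± 1.00 (SD, n = 7) in beta, a change of -3.19 (two-sided exact permutation p = 0.000311, 0.00186 adjusted over the 36 tests; the smallest p possible is 0.000155). In alpha DT, Fos minus Jund was 3.30 ± 0.50 (SD, n = 4), a change of -1.73 (exact permutation p = 0.0141, adjusted 0.0454), and in alpha Pdx1 DT 3.68 ± 0.52 (SD, n = 6), a change of -1.35 (exact permutation p = 0.0173, adjusted 0.0454). Atf3 minus Jund in alpha DT (-1.98) and Jun minus Jund in alpha Pdx1 DT (-1.04) also passed, each with an adjusted exact permutation p of 0.0454. In alpha Pdx1 only Ier5 minus Jund passed, at +2.23 (exact permutation p = 0.00311, adjusted 0.0124). Jund itself had values above alpha in both toxin groups, at +0.78 and +0.75, so these differences hold the movement of both genes.

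Within groups, members moved together to unequal degrees. Since beta fell into separate sets of libraries, correlations were taken over the deviations of the 23 libraries of the 4 alpha-cell groups from their group means; these share a library's depth and handling, and are given as a description. Among the 8 members other than Jund and Ier5 the 28 pairs had Pearson's r from -0.48 to 0.75, with a median of 0.37. Jun and Egr1 had the highest r (0.75), Jun and Btg2 0.65, Jun and Junb 0.62 and Fosb and Junb 0.61. Fos had negative values with Fosb (-0.48) and Junb (-0.32). Jund had a median r of -0.02 with the 8, and Ier5 a median of -0.26, reaching -0.51 with Fos and with Btg2. Leaving out the library labelled alpha Pdx1 DT 5 gave a median of 0.34 over the 28 pairs. With the beta libraries included, the median over 30 libraries was 0.63.

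**Figure D4:**
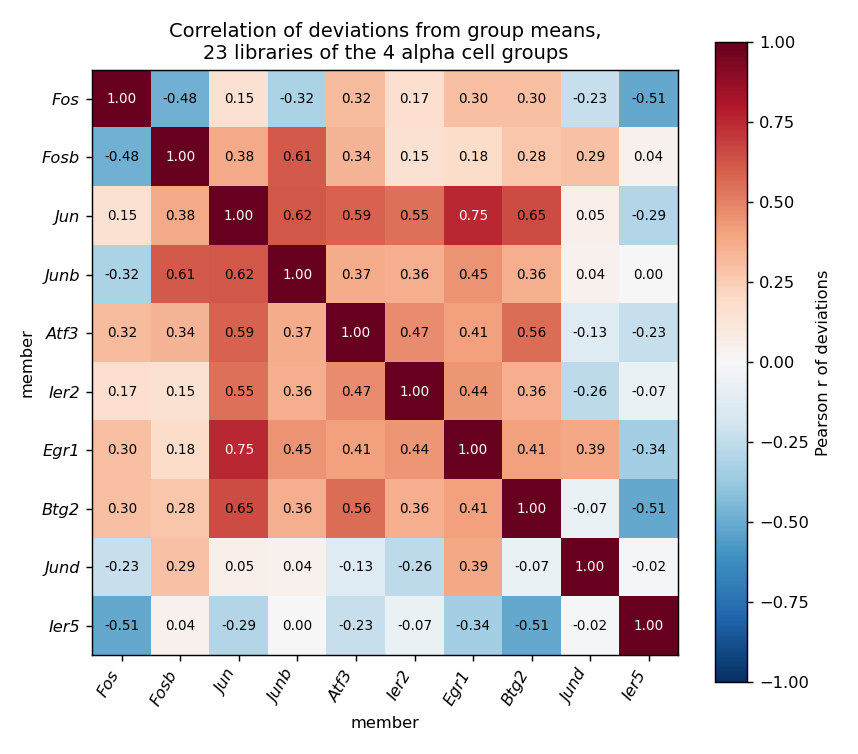
Pearson's r between members (rows and columns) over the deviations of 23 libraries of the 4 alpha-cell groups from their group means; red is positive and blue negative. Jun, Junb, Atf3, Ier2, Egr1 and Btg2 form a block of positive values, Fos is at -0.48 with Fosb, and the rows of Jund and Ier5 are near 0 or below it for most members.

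The genes most like the members were found by correlation with the mean of the centred members over all 30 libraries. The 6 highest were Gm5454, Scn3a, Gfra1, Akap12, Pcdh9 and Npas4, with r from 0.95 to 0.97; these rest largely on the low beta libraries, and without beta r was 0.66 for Gm5454, 0.76 for Npas4 and 0.19 to 0.45 for the other 4. By deviations from group means, the 6 highest over 30 libraries were Irx1, Wnk3, Gm5454, Zfp36, Nr4a1 and Npas4, with r from 0.80 to 0.81 and, over the 23 libraries without beta, from 0.45 to 0.75. Npas4 and Nr4a1 are themselves activity-induced transcription factors, and Zfp36 is an mRNA-destabilising protein of the same response. For single members the closest gene by deviations was Gab1 for Fos (0.86), Gpx3 for Fosb (0.82), Wnk3 for Jun (0.83), Gadd45b for Junb (0.72), Sbno1 for Jund (0.79) and Klhl13 for Atf3 (0.83). It was Rpl14 for Ier2 (0.80), Tpm1 for Ier5 (0.81), A1cf for Egr1 (0.80) and Ndst4 for Btg2 (0.75). Without beta these values ranged from 0.62 (Ndst4) to 0.83 (Rpl14).

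Genes of the same response outside the 10 were described from 5 lists, beside the 17.6% of all genes lower and 16.9% higher in beta than in alpha. Of 31 other immediate early genes tested (Ctgf did not pass the filter), 19 were lower and 3 higher in beta than in alpha (limma), with a median of -1.27 against 0 over all genes. Egr4, a relative of Egr1, was at 2.03 in beta and 7 in alpha, a difference of -4.97 ± 0.54 (limma adjusted p = 5.38e-09), and Npas4, a calcium-induced factor, differed by -3.49 ± 0.38 (1.71e-08). Plk3, a stress-responsive polo-like kinase, went the other way at +4.10 ± 0.50 (6.44e-08), as did Bhlhe40, a repressor tied to the circadian clock, at +1.41 ± 0.36 (0.00239). Of 16 feedback inhibitors 7 were lower and 0 higher, with a median of -0.36. Dusp1, a phosphatase that switches off MAP kinases, differed by -2.70 ± 0.25 (2.86e-10), and Spry1, an inhibitor of receptor signalling, by -4.10 ± 0.55 (3.75e-07).

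The other lists were mixed in direction. Of 9 other AP-1 and small Maf subunits tested, 2 were lower (Batf at -2.66 ± 0.72, with means of 4.78 in alpha and 2.12 in beta, and Jdp2 at -2.13 ± 0.56, with 4.14 and 2) and 1 higher (Atf2 at +0.48 ± 0.15), with limma adjusted p of 0.00422, 0.00313 and 0.0111. The Batf and Jdp2 means all lie under 5, at the low end of the table. Of 33 upstream kinases and factors 8 were lower and 2 higher, with a median of 0.06. The 2 higher genes were the kinases Braf, at +0.57 ± 0.15, and Mapk10, at +0.62 ± 0.17, and the lower ones with the smallest p were Mkl2, a coactivator of SRF, at -0.96 ± 0.15, and Crebbp, the CREB-binding acetyltransferase, at -0.62 ± 0.15 (limma adjusted p from 6.83e-06 to 0.00516). Of 12 heat shock genes 4 were lower and 3 higher, with a median of -0.16: Hspa1a, an inducible chaperone, differed by -1.92 ± 0.35 and its cochaperone Dnajb1 by -1.89 ± 0.40, whereas the mitochondrial chaperone Hspd1 was at +0.79 ± 0.18 and Bag3 at +0.78 ± 0.27 (limma adjusted p from 6.46e-05 to 0.0226).

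**Figure D5:**
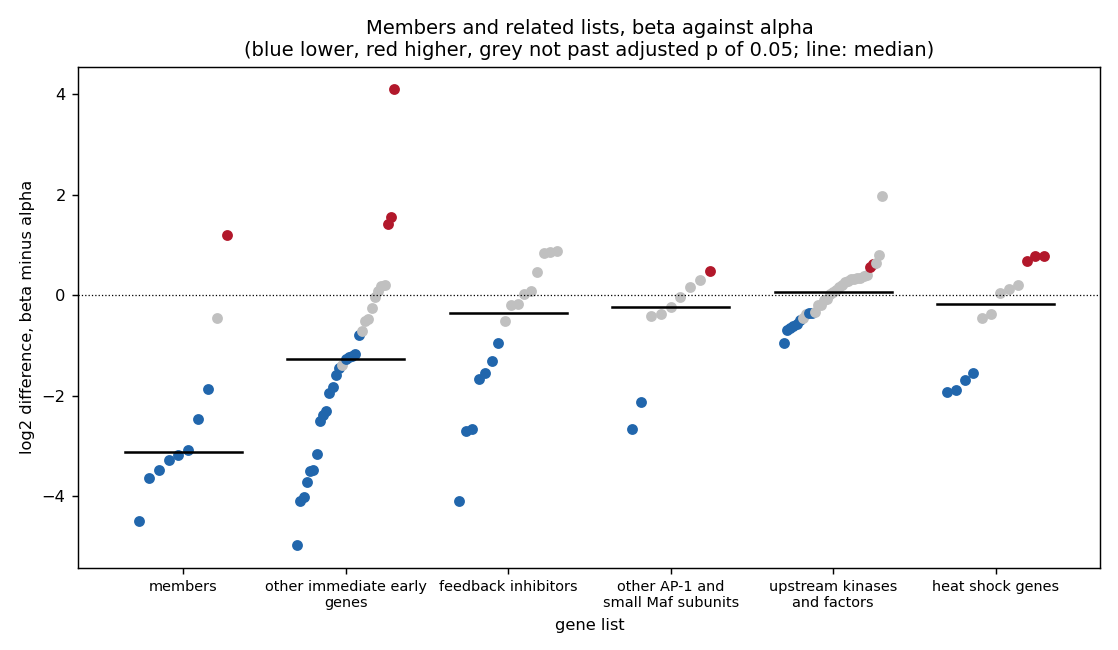
Log2 difference of beta minus alpha (y axis) for the 10 members and the genes of 5 related lists (x axis); each point is a gene, blue where lower and red where higher past an adjusted p of 0.05, and the line is the list's median. Most members and other immediate early genes lie well below 0, with Plk3 the highest point at +4.10, while the upstream kinases and factors centre near 0 with a median of 0.06.

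In the other comparisons with alpha the counts are small and are read beside the shares of all genes, which were 1.57% higher and 1.70% lower in alpha DT, 2.36% and 1.98% in alpha Pdx1, and 4.06% and 3.75% in alpha Pdx1 DT. In alpha Pdx1, Csrnp1, an immediate early nuclear protein, was lower (-1.38 ± 0.37, limma adjusted p = 0.0270), as 1 of 31 other immediate early genes. The growth-factor kinase Rps6ka3 was higher (+1.05 ± 0.23, 0.00918), as 1 of 33 upstream genes. The chaperones Hsp90aa1 (+0.65 ± 0.17, 0.0241) and Hspb1 (+1.29 ± 0.38, 0.0478) were higher, as 2 of 12 heat shock genes, and 0 of 16 feedback inhibitors passed, the smallest p being those of Dusp6 at +1.21 ± 0.42 and Socs3 at -1.25 ± 0.44. In alpha DT, Errfi1, a feedback inhibitor of the EGF receptor, was the 1 gene of the 5 lists that passed (+1.04 ± 0.30, 0.0454); Sgk1 was at +2.14 ± 0.67, Klf6 at +0.74 ± 0.28 and Bag3 at +1.09 ± 0.32, none of them past the test. In alpha Pdx1 DT, Klf10 (+1.05 ± 0.25, 0.0145) and Egr3 (+1.84 ± 0.55, 0.0369) were higher and the growth-arrest gene Gadd45a lower (-1.19 ± 0.36, 0.0398), as 3 of 31, with Dusp5 (+1.45 ± 0.42, 0.0307) as 1 of 16 and Bag3 (+0.88 ± 0.28, 0.0483) as 1 of 12. None of the 9 other AP-1 and small Maf subunits passed in these 3 comparisons; those with the smallest p included Maff in alpha Pdx1 at -1.42 ± 0.47, Batf in alpha DT at -1.79 ± 0.86 and Mafk in alpha Pdx1 DT at -0.67 ± 0.22.

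Against alpha Pdx1, 4.83% of all genes were higher and 4.39% lower in alpha Pdx1 DT, and the genes of the same lists are named after their values were seen. Of 33 upstream genes 6 were higher and 0 lower: the kinases Mapk3 (+1.04 ± 0.23) and Map2k7 (+1.26 ± 0.28), the ETS factor Elk1 (+1.07 ± 0.29), the CREB coactivators Crtc1 (+0.81 ± 0.22) and Crtc2 (+0.97 ± 0.22), and Mef2d (+0.89 ± 0.27), with limma adjusted p from 0.00716 to 0.0351. Of 31 other immediate early genes 5 were higher (Egr3, Klf10, Srf, Sgk1 and Per1) and 1 lower, Crem, a cyclic AMP responsive modulator, at -1.34 ± 0.35 (0.0186). Of 12 heat shock genes 3 were lower, Hsp90aa1 at -1 ± 0.19 (0.00295), Hspe1 at -0.97 ± 0.28 (0.0271) and Dnaja1 at -1.14 ± 0.29 (0.0149). Ier5 was lower and Junb and Jund higher in the same libraries, and Rn18s-rs5 separated these groups as described above.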

How the data were processed

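The data are bulk RNA-seq of sorted mouse islet cells, 30 libraries in 5 groups. The submitters' processing notes name GSNAP and the build GRCm38; annotation, counting rule and length scaling are not given in the sources used here. Values per gene, as the authors deposited them, were read, from their range and nearly common quartiles, as quantile-normalised log2 values; no source used here states that step. Depth is unknown and its precision cannot be given. Some columns are headed by bare numbers that match sample titles, and those other deposited values are on the same scale. From the deposited values, genes reaching 5 in 4 or more libraries were kept (16633 tested, 1142 removed). Group means were fitted with limma 3.58.1 in R 4.3.3 (intensity trend, robust variances), with 11 contrasts and Benjamini-Hochberg adjustment over genes in each, at a threshold of 0.05. The fit was checked on simulated data. Within-library differences were tested with exact permutation. Genes were named by rule: the 10 members, up to 2 higher and 2 lower genes per related list in each comparison with alpha, or the 2 of smallest p, and the genes of highest correlation. List genes in alpha Pdx1 DT against alpha Pdx1 were named outside this rule, after their values were seen. The members and lists were chosen with earlier results of these data known. Promoter windows came from RefSeq (GRCm38.p6). Alternatives covered filters, an offset, variance settings, weights, covariates, rescaling and left-out libraries; covariates of acinar and leukocyte markers were added after the data were seen. Python 3.11.15 prepared tables and figures.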

Additional observations from a re-analysis of the deposited data

Results flagged for a closer look

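Each of the 50 sets of 1 member in 1 group was searched for a single library far from the rest (Dixon's criterion at 95%, which chance meets in about 1 set in 20). In 3 sets a library was found. Fos was at 15.14 in the library labelled alpha Pdx1 DT 5, with the next of the group at 14.35. This is the library that resembled alpha 4, and without it Fos passed in alpha Pdx1 DT against alpha Pdx1. Ier5 was at 10.96 in the library labelled alpha 8, with the next alpha library at 9.39, and the same library had Pdx1 at 11.23. Jun was at 13.46 in the library labelled alpha DT 2, with the next at 14.09, and Jun passed in no comparison of alpha DT with another group of alpha-cells.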

How the results depend on the processing

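Each count of called members was recomputed under 45 alternatives, 30 of which left out 1 library. The shares of all genes given in the text belong to the main fit, and not to the alternatives. Of 46 called pairs of member and comparison, 31 kept their direction and call under all 45, 15 lost the call under at least 1 and 0 changed direction. Of 64 uncalled pairs, 55 were never called. The 4 counts with beta, that of alpha Pdx1 DT against alpha DT and that of the interaction stayed within 1.5 times their values. In alpha DT against alpha the count of 0 became 1 with a depth proxy or the acinar mean as a covariate and without the 5 libraries that stood apart. In alpha Pdx1 against alpha the count of 2 became 1 with the groups of the comparison alone or the Rn18s-rs5 covariate, 0 against a log2 difference of 1, and 1 to 2 with 1 library left out. In alpha Pdx1 DT against alpha the count of 0 became 1 with the depth proxy, the acinar covariate or without alpha 4 and alpha Pdx1 DT 5, 3 without the 5 libraries, and 0 to 1 with 1 left out. In alpha Pdx1 DT against alpha Pdx1 the count of 3 became 5 with the groups alone, 0 with Rn18s-rs5 or against a log2 difference of 1, and 1 with the leukocyte covariate. In alpha Pdx1 against alpha DT the count of 4 became 2 with library weights or the leukocyte covariate, 1 with Rn18s-rs5 or against a log2 difference of 1, and 2 to 4 with 1 left out. The cause of these changes was not tested. The 14 differences from Jund became 10 with the mean of the other members as reference, 19 without the 5 libraries and 10 to 19 with 1 left out. Across the alternatives, in beta against alpha, the other immediate early genes lower ranged from 10 to 23 around the reported 19 and higher from 1 to 3, the feedback inhibitors lower from 3 to 9, the upstream genes lower from 0 to 12 and higher from 0 to 9, the heat shock genes lower from 0 to 4 and higher from 0 to 3, and the other subunits lower from 0 to 3; the counts of list genes in the comparisons of alpha DT, alpha Pdx1 and alpha Pdx1 DT with alpha all fell to 0 in at least 1 alternative. No paired analysis was possible because the labels give no replicate numbers, and the numbers used here follow accession order. The table holds no depth, so precision rests on the number of libraries.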
